A study of Rattus norvegicus with 24 samples.

Results

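MHC class II molecules and the invariant chain were followed in the left ventricle of Dahl salt-sensitive rats. The genes were RT1-Da, RT1-Ba, RT1-Bb, RT1-Db1 and Cd74. Every probe set that the array annotation gives to 1 of these 5 symbols was taken, whatever its values. The 5 genes themselves were chosen with earlier results of these data known. They are 5 of the 4737 genes that the annotation names by 1 symbol. This gave 16 of the 8799 probe sets in the table: 2 for RT1-Da, 3 for RT1-Ba, 5 for RT1-Bb, 2 for RT1-Db1 and 4 for Cd74. A total of 13 passed the filter on low intensity and were tested. The other 3, all of RT1-Bb, averaged 12.9, 8.96 and 4.12 over the arrays and were too dim to compare.

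All rats were of the Dahl salt-sensitive strain, which becomes hypertensive on a salt-rich diet. They were 5 weeks old on arrival and 6 weeks old at the start of treatment. The high salt rats were fed 6% NaCl, the exercised rats ran on a treadmill every day for 6 weeks, ending at 16 m/min on a 5 degree incline for 90 minutes a day, and the sedentary controls of matched age had normal chow. The titles name 8 groups of 3 columns: high salt and control at 3, 6 and 15 weeks, and exercise at 3 and 6 weeks. The starting point of these weeks is not stated in the labels, nor is it stated that each array was a separate animal, so the p-values measure only the spread between arrays.

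At 3 weeks the columns of exercise numbered 2 and 3 were identical to those of control numbered 2 and 3. The table thus held 22 distinct arrays. The 2 arrays under both labels, the remaining control array and the remaining exercise array of 3 weeks are called non-salt hearts at 3 weeks below (n = 4). The ratio of the 3' to the 5' probe sets of GAPDH, which grows as RNA is degraded, was 1.58, 2.48 and 3.99 in the 6-week controls. The controls of 15 weeks had 1.09, 1.52 and 1.58, and all further distinct arrays had 0.989 to 1.18. The beta-actin ratio ran otherwise at 15 weeks. It was 1.68, 1.32 and 1.57 in high salt hearts at 15 weeks and 1.14, 1.27 and 1.56 in their controls. In the 6-week controls it was 1.98 to 3.29. The hexokinase ratio was 2.29, 1.80 and 2.19 in high salt hearts at 15 weeks and 2.02, 3.02 and 2.35 in their controls. In the 6-week controls the hexokinase ratio was 3.00, 8.35 and 11.1. No detection calls were used here. In ventricle, fewer cells of a type and less RNA per cell cannot be told apart.

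MHC class II molecules are pairs of an alpha and a beta chain that show peptides from taken-up proteins to CD4 T cells. Rats have a D molecule, made of the RT1-Da alpha and RT1-Db1 beta chains and related to human HLA-DR, and a B molecule, made of the RT1-Ba alpha and RT1-Bb beta chains and related to HLA-DQ. Cd74, the invariant chain, fills the groove of new class II molecules and guides them to the endosome, where cathepsins trim it and RT1-DM exchanges the remnant for peptide. Dendritic cells, macrophages and B cells make most class II, and interferon gamma induces it in other cells, including endothelium, through the coactivator CIITA.

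The promoters of these genes are read through an X box, bound by the RFX complex, and a Y box, bound by NF-Y, to which CIITA is recruited. Stretches of RefSeq's rat promoters are shown because each of these genes had an annotated probe set that fell at 15 weeks. GRCr8 is the build of the sequence table and not one named by the array. Capitals mark the letters ATTGG (Y box, or CCAAT where it lies on the other strand) and ACNGATG (core of the X box), searched on both strands from 250 bases before to 50 bases after the start. The 2 motifs do not overlap in these windows.
RT1-Da: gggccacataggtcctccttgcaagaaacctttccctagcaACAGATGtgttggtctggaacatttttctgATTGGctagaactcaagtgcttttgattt
RT1-Db1: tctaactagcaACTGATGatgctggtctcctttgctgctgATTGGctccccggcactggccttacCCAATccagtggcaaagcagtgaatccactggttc
RT1-Ba: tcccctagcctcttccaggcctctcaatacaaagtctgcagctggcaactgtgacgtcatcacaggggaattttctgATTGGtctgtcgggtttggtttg
RT1-Bb: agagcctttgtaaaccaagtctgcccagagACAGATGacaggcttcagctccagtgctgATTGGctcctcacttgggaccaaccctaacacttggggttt
Cd74: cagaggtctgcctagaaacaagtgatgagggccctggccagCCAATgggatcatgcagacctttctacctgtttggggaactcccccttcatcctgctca

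The RT1-Da stretch is chr20:4515295-4515394 on the plus strand, and that of RT1-Db1 is chr20:4560183-4560282 on the minus strand. RT1-Ba is shown at chr20:4576937-4577036 (plus), RT1-Bb at chr20:4604139-4604238 (minus) and Cd74 at chr18:56526976-56527075 (plus). The RT1 stretches run from -120 to -21 relative to the start, and that of Cd74 from -230 to -131. This start is the one behind the promoter table, which lies downstream of the gene's annotated start by 22 bases in RT1-Da, 20 in RT1-Db1 and 135 in Cd74 and coincides with it in RT1-Ba and RT1-Bb. An X box core followed by a Y box on the same strand, with 10 to 30 bases between them, was found in RT1-Da, RT1-Db1 and RT1-Bb, an arrangement searched after these sequences were seen. It occurs in 0.158% of the 33469 promoters of the table. The Y box letters alone occur in 37.5%, the X box core in 10.2% and both in 3.87%. RT1-Ba and Cd74 held the Y box letters, and the letters of the X box core were not in their windows.

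High salt hearts at 15 weeks had less class II and invariant chain RNA than their controls. Of the 13 tested probe sets, 9 fell against the controls of 15 weeks and 0 rose. Each of the 5 genes had at least 1 annotated probe set that fell. For RT1-Ba this was only X07551cds_s_at, whose signal cannot be assigned to 1 chain. Among all 6555 tested probe sets 3.89% fell. The median log2 fold change of the 13 was -1.04, beside -0.04 over all tested probe sets. In 11 of the 13, every high salt array lay below every control array, as in 12.4% of all tested probe sets. Fold changes are limma estimates on the log2(intensity + 40) scale with their SE (n = 3 each unless stated), and p-values are adjusted by Benjamini-Hochberg over the 6555 probe sets.

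The calls of RT1-Da and Cd74 passed in all 19 alternatives run. Those of the other genes were less stable: RT1-Bb (X56596_at) passed in 16 of 19, RT1-Ba (X07551cds_s_at) in 14 and RT1-Db1 (X53054_g_at) in 12.

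The chains of the D molecule fell at 3 of their 4 probe sets. RT1-Da (M15562_g_at) was at 477, 561 and 653 in high salt hearts at 15 weeks, against 2052, 1778.5 and 2920.1 in controls. The groups were far apart, and the log2 change was -1.90 ± 0.28 (adjusted p = 0.00034). Its second probe set (M15562_at) was at 208, 203.5 and 222 in high salt hearts and 397, 559.5 and 488 in controls, a log2 change of -1.04 ± 0.21 (adjusted p = 0.0046). RT1-Db1 (X53054_g_at) was at 222, 179 and 186 in high salt hearts, against 343, 429 and 484 in controls, and fell by 0.95 ± 0.26 (adjusted p = 0.032). That call rested on every array but control number 1, since leaving out any other of the 6 gave an adjusted p of 0.057 to 0.13. Its dimmer probe set (X53054_at) stood at 36.2, 15 and 31.1 in high salt hearts and at 86.8, 102.3 and 82.0 in controls. The groups did not overlap there either, but the difference of -0.96 ± 0.34 did not pass the test (adjusted p = 0.10).

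In the B molecule 2 of 5 tested probe sets fell, and the probe sets of RT1-Ba disagreed. RT1-Bb (X56596_at) was at 145.5, 182 and 182 in high salt hearts at 15 weeks, against 293, 456 and 447 in controls, a log2 change of -1.04 ± 0.26 (adjusted p = 0.017). The call was lost without control number 2 or 3 or high salt number 1 (adjusted p = 0.070 to 0.088). For RT1-Ba, X07551cds_s_at was at 50.8, 74.4 and 44.0 in high salt hearts, against 336, 452 and 114 in controls. All 3 high salt arrays were below the controls, the lowest control was well under the other controls, and the log2 change was -1.68 ± 0.44 (adjusted p = 0.024). Without control number 2 it was -1.33 (adjusted p = 0.16), and the call was also lost without control number 1 or high salt number 1 or 3. The brightest RT1-Ba probe set (K02815_s_at) was at 478, 724 and 397 in high salt hearts and 698, 1021.0 and 843 in controls, where the groups overlapped and the difference of -0.67 ± 0.32 did not pass (adjusted p = 0.25).

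The remaining tested probe sets of the B molecule did not pass either. M22366_at of RT1-Ba was at 188.0, 486 and 203 in high salt hearts and 297.5, 209.7 and 322 in controls, a difference of -0.02 ± 0.36 with a 95% interval of -0.78 to 0.74. M36151cds_s_at of RT1-Bb averaged 151 ± 75 in high salt hearts and 278 ± 30 in controls (SD), a difference of -0.80 ± 0.42 (adjusted p = 0.31). By the array maker's naming, probe sets ending in s_at can match more than 1 transcript, so their signal cannot be assigned to 1 chain.

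Cd74, the invariant chain, fell at all 4 of its probe sets. X13044_at, the brightest, was at 1897, 1639.7 and 1332 in high salt hearts at 15 weeks, against 3738, 2901 and 2736 in controls, a log2 change of -0.93 ± 0.17 (adjusted p = 0.0019). X14254cds_at was at 48.0, 39.3 and 69.9 in high salt hearts, against 654.5, 443 and 357 in controls. This was the largest fall among the class II probe sets, with a log2 change of -2.48 ± 0.29 (adjusted p = 2.3e-05). The high salt values are near the added constant of 40, so the log2 value understates it: the ratio of the mean intensities was 0.108. X13044_g_at (1117, 1082 and 900.2 in high salt hearts, 2149.7, 3032 and 2650.5 in controls) fell by 1.30 ± 0.22, and X14254cds_g_at (255, 100.5 and 466 in high salt hearts, 1059, 959.8 and 894 in controls) by 1.87 ± 0.35 on the log2 scale. The probe sets of Cd74 thus agreed in direction and differed in size.

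**Figure D1:**
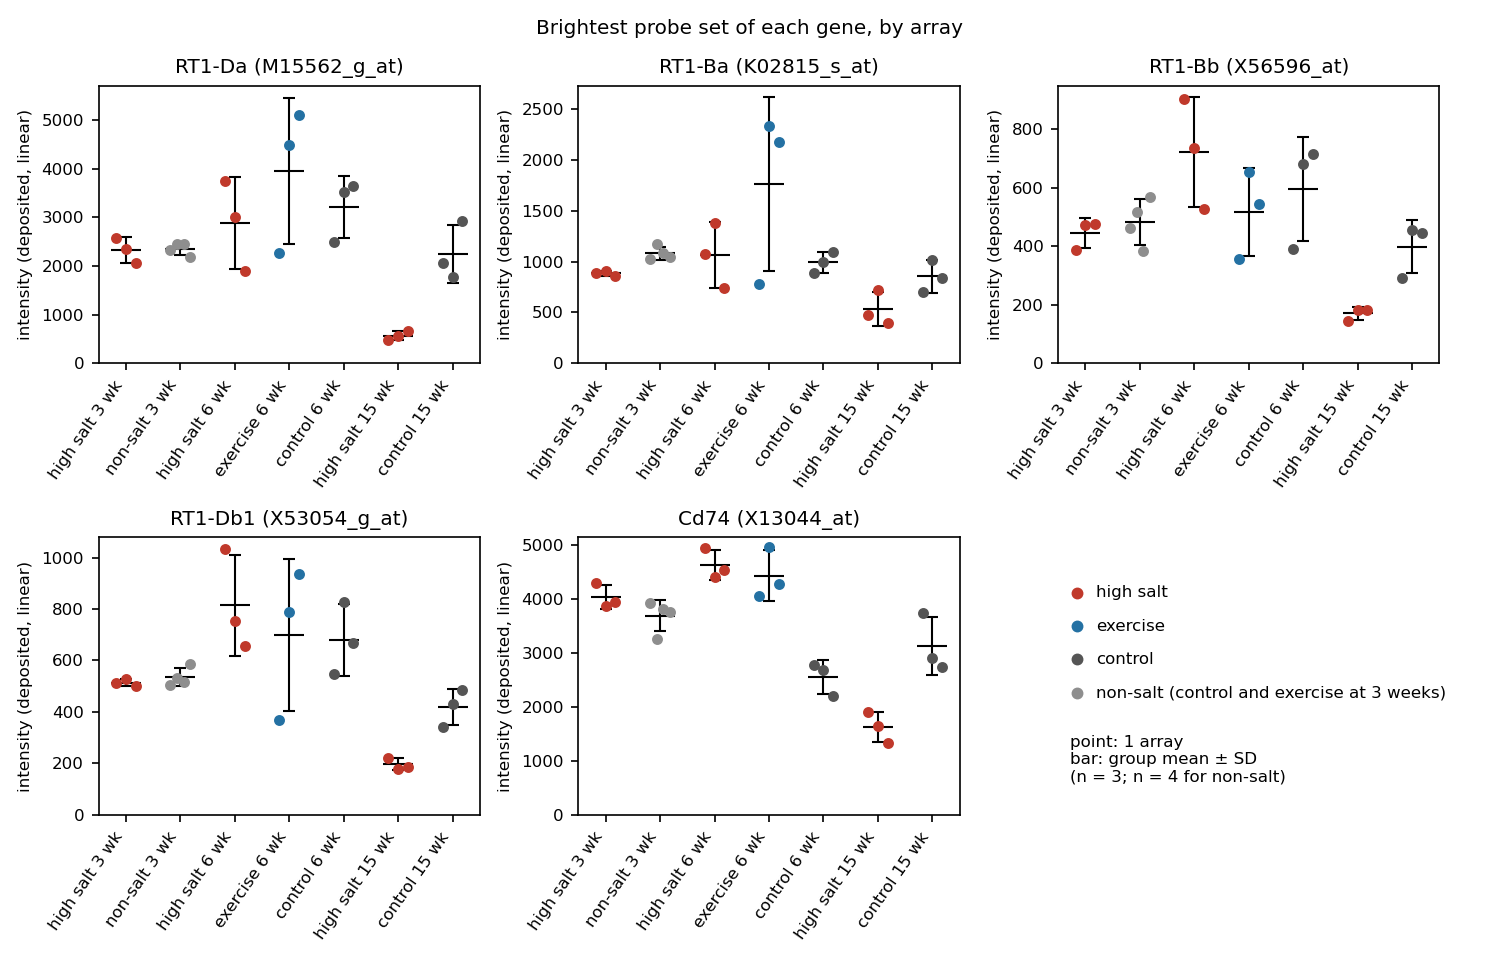
Intensity of the brightest probe set of each gene (vertical axis, deposited linear scale) in every distinct array, by group; bars are the group mean ± SD, n = 3, or n = 4 for the non-salt hearts at 3 weeks. The 3 high salt arrays of 15 weeks lie below every other array in each panel except RT1-Ba, where 1 control of 15 weeks at 698 lies below the highest of them at 724.

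The 15-week high salt hearts stood apart from the rest of the series and not only from their controls. In 10 of the 13 tested probe sets all 3 of these arrays were below each of the 19 other distinct arrays, as in 2.23% of all tested probe sets. For RT1-Da (M15562_g_at) the highest of them was at 653 and the lowest other array at 1778.5. For Cd74 (X14254cds_at) these values were 69.9 and 241. The exceptions were K02815_s_at and M22366_at of RT1-Ba and M36151cds_s_at of RT1-Bb. Against high salt hearts of 6 weeks, 11 of 13 fell, where 1.51% of all tested probe sets did. Their median was -1.71, beside 0.01 over all tested probe sets.

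Within the salt diet the fall lay between 6 and 15 weeks. High salt hearts had 2329 ± 262 for RT1-Da (M15562_g_at) at 3 weeks, 2884 ± 939 at 6 weeks and 564 ± 88 at 15 weeks, a log2 change of -2.23 ± 0.28 between the later times (adjusted p = 5.1e-05). Cd74 (X13044_at) was at 4040.4 ± 220.2 at 3 weeks, 4635 ± 276 at 6 weeks and 1623 ± 283 at 15 weeks, a log2 change of -1.50 ± 0.17 (adjusted p = 1.9e-05) between the later times. RT1-Bb (X56596_at) had 445 ± 50, 721 ± 188 and 169.9 ± 21.1 at these times, and RT1-Db1 (X53054_g_at) 514 ± 14, 814 ± 197 and 196 ± 23. RT1-Ba (K02815_s_at) had 886 ± 23, 1067 ± 324 and 533 ± 171, and its difference of -0.95 ± 0.32 between the later times did not pass (adjusted p = 0.13).

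At 6 weeks 5 of the 13 probe sets were called higher in high salt hearts than in controls and 0 lower, beside 6.62% of all tested probe sets called higher. The median of the 13 was 0.54, beside -0.15 over all tested probe sets. Quantile normalization moved that overall median to -0.05 and the split of all calls to 524 higher and 407 lower, against 434 and 505 as deposited, and each of the 5 class II probe sets still passed. Cd74 held 3 of them. X13044_at was at 4946, 4417.5 and 4541 in high salt hearts, against 2784, 2690.4 and 2199 in controls, a rise of 0.85 ± 0.17 (adjusted p = 0.0027). X14254cds_at (923, 788 and 614 in high salt hearts, 288, 389 and 241 in controls) rose by 1.24 ± 0.29 and X14254cds_g_at (2105.8, 2137 and 1544 in high salt hearts, 781, 710.2 and 709.6 in controls) by 1.33 ± 0.35. The call of X14254cds_g_at was lost without control number 2 or 3 or high salt number 2 (adjusted p = 0.052 to 0.057). The fourth probe set of Cd74, X13044_g_at, was at 2935 ± 558 in high salt hearts and 2861 ± 1124 in controls and did not pass (0.09 ± 0.22, adjusted p = 0.84).

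The other called probe sets at 6 weeks were s_at sets of the B molecule, X07551cds_s_at of RT1-Ba (1.42 ± 0.44, adjusted p = 0.037) and M36151cds_s_at of RT1-Bb (1.36 ± 0.42, adjusted p = 0.036). For M36151cds_s_at, a control at 40.8 stood beside controls at 292 and 319. Without that array, number 1, it was 0.66 (adjusted p = 0.16) and X07551cds_s_at was 1.02 (adjusted p = 0.13). Over the 20 alternatives these calls passed in 12 for M36151cds_s_at, at 0.35 to 2.94, and in 10 for X07551cds_s_at. The chains of the D molecule did not pass: RT1-Da (M15562_g_at) averaged 2884 ± 939 in high salt hearts and 3216 ± 633 in controls, with a 95% interval of the log2 difference of -0.78 to 0.40. RT1-Db1 (X53054_g_at) averaged 814 ± 197 in high salt hearts and 679.5 ± 140.8 in controls, with an interval of -0.31 to 0.79.

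These 6-week calls changed with the choice of controls, and the 6-week controls are the arrays with the highest GAPDH ratios. With the GAPDH ratio as a covariate 1 of the 5 was called. With the controls of 3 and 15 weeks in place of the 6-week controls 0 were called, where Cd74 (X13044_at) had 0.49 (adjusted p = 0.23). Against the non-salt hearts of 3 weeks, a comparison added after the data were seen, 0 were called too, and Cd74 (X13044_at) had 0.33 (adjusted p = 0.51). The part of RNA quality in the 6-week differences was not tested further.

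The same controls served the comparison of exercise with control at 6 weeks, so both lean on the same 3 arrays. In exercised hearts 2 of 13 probe sets rose and 0 fell, beside 4.47% of all tested probe sets that rose. Both belong to Cd74. X13044_at was at 4059, 4963 and 4281 in exercised hearts, against 2784, 2690.4 and 2199 in controls, a rise of 0.79 ± 0.17 (adjusted p = 0.0074). X14254cds_at was at 540.0, 1145 and 1295 in exercised hearts, against 288, 389 and 241 in controls, a rise of 1.51 ± 0.29 (adjusted p = 0.0034). With the GAPDH covariate, with the controls of 3 and 15 weeks, or with the non-salt hearts of 3 weeks, 0 were called.

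The exercised hearts differed among themselves. Array number 1 was the lowest of the 3 in 11 of 13 probe sets, as in 28.6% of all tested probe sets. RT1-Ba (K02815_s_at) was at 782 there and at 2333 and 2176 in the other exercised hearts, and RT1-Da (M15562_g_at) at 2260.3 beside 4489 and 5111.5. Without that array 5 probe sets were called, K02815_s_at among them (1.15, adjusted p = 0.013), and 5 were also called without control number 3. Other immune genes did not all follow. Ptprc (M25823_s_at) was at 180.9 in exercised array number 1, beside 128.8 and 153.0. The B cell marker Cd79b was at 156.8, beside 85.5 and 104.8. Some other immune genes were low in the same exercised array. Lyz2 (lysozyme of macrophages) was at 522 there, beside 1541 and 1738, and B2m at 6774, beside 9621 and 9594.5. The summed intensity of the 14 interferon response genes was 2927, beside 6034 and 6982.5. That of the 7 macrophage markers was 2330.2, beside 4088 and 4778.5. Lyz2 is part of the macrophage sum, and bright genes weigh most in such sums. Irf1 of the interferon list averaged 1824 ± 1158 in exercised hearts. Array number 3 of the high salt hearts and number 1 of the controls at 6 weeks were each the lowest of their group in 10 of 13, as in 42.9% and 41.2% of all tested probe sets.

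High salt and exercised hearts were compared directly at 6 weeks, which leaves the controls out. In this comparison 0 of 13 passed in limma at an adjusted p under 0.05, 0 had an unadjusted p under 0.05, and the smallest adjusted p was 0.74, with 0.0153% of all tested probe sets called. For Cd74 (X13044_at) the means were 4635 ± 276 in high salt hearts and 4434 ± 471 in exercised hearts, and the 95% interval of the log2 difference was -0.29 to 0.42. For RT1-Ba (K02815_s_at), the member with the smallest p, the means were 1067 ± 324 in high salt hearts and 1763.5 ± 854.0 in exercised hearts, with an interval of -1.26 to 0.06. Intervals of this width do not show that the loads act alike.

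**Figure D2:**
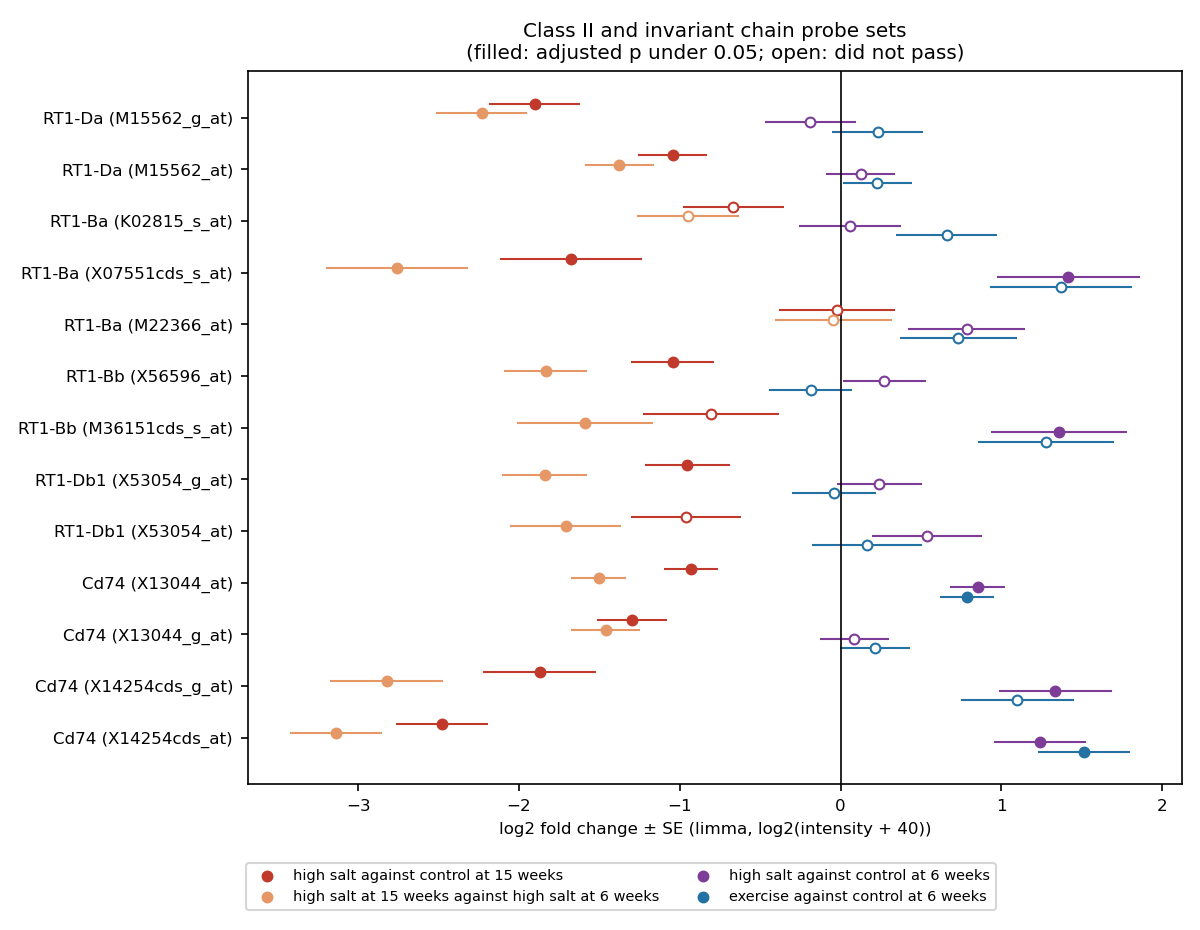
Log2 fold change ± SE (horizontal axis) of the 13 tested probe sets (vertical axis) in 4 comparisons; filled points passed the test and open points did not. Both comparisons of the 15-week high salt hearts lie at or left of 0 for every probe set, and the comparisons with the 6-week controls lie mostly right of 0.

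The salt effect differed between 15 and 6 weeks. The difference of the differences passed the test for 6 of 13 probe sets, all more negative at 15 weeks. Among all tested probe sets 0.748% passed in that direction. The 6 came from 3 genes: the 4 probe sets of Cd74, 1 of RT1-Da and 1 of RT1-Ba. The brightest probe sets of RT1-Bb (adjusted p = 0.076), RT1-Db1 (adjusted p = 0.13) and RT1-Ba (adjusted p = 0.46) did not pass. Cd74 (X14254cds_at) had -3.72 ± 0.40 (adjusted p = 3.3e-05) and Cd74 (X13044_at) -1.78 ± 0.24 (adjusted p = 0.00046). RT1-Da (M15562_g_at) had -1.71 ± 0.40 (adjusted p = 0.030), which passed in 16 of 24 alternatives, and Cd74 (X13044_g_at) passed in 18. The other 4 called probe sets passed in all 24. This value also carries the 6-week controls.

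Among the remaining comparisons no class II difference passed the test. High salt against non-salt hearts at 3 weeks gave 0 calls among 13, with 0 unadjusted p under 0.05 and 0.153% of all tested probe sets called by limma. RT1-Da (M15562_g_at) was at 2579, 2352 and 2057 in high salt hearts at 3 weeks. It was at 2326 in the control array, 2193 in the exercise array and 2448 and 2450.0 in the arrays under both labels, and the 95% interval of the log2 difference was -0.53 to 0.49. The controls of 15 weeks against the non-salt hearts of 3 weeks also gave 0 calls and 0 unadjusted p under 0.05, with 0.0153% of all called, and 12 of 13 differences were below 0 (median -0.25, lowest -0.44). Between the controls of 15 and 6 weeks 0 were called (0.87% of all called). From 3 to 6 weeks on salt all 13 differences were above 0, with a median of 0.39. In 7 the groups did not overlap, beside 5.72% of all tested probe sets without overlap in that direction. Yet 0 passed (0.0763% of all called).

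A single class II level per array was taken as the mean log2 value of the brightest probe set of each gene, minus its mean in the non-salt hearts of 3 weeks. It was -1.38, -1.26 and -1.43 in high salt hearts at 15 weeks, against -0.40, -0.23 and -0.14 in controls of 15 weeks. At 6 weeks it was 0.57, 0.40 and -0.03 in high salt hearts and -0.25, 0.67 and 0.65 in exercised hearts, against -0.17, 0.22 and 0.15 in controls. In array order, the GAPDH ratios were 1.11, 1.16 and 1.11 in the 15-week high salt hearts. They were 1.09, 1.52 and 1.58 in the 15-week controls, whose levels rose in the same order. With the GAPDH ratio as a covariate 7 probe sets were called lower at 15 weeks, beside 3.22% of all tested. Against the non-salt hearts of 3 weeks 12 were, beside 4.13%. The part of RNA quality in the 15-week fall was not tested further.

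**Figure D3:**
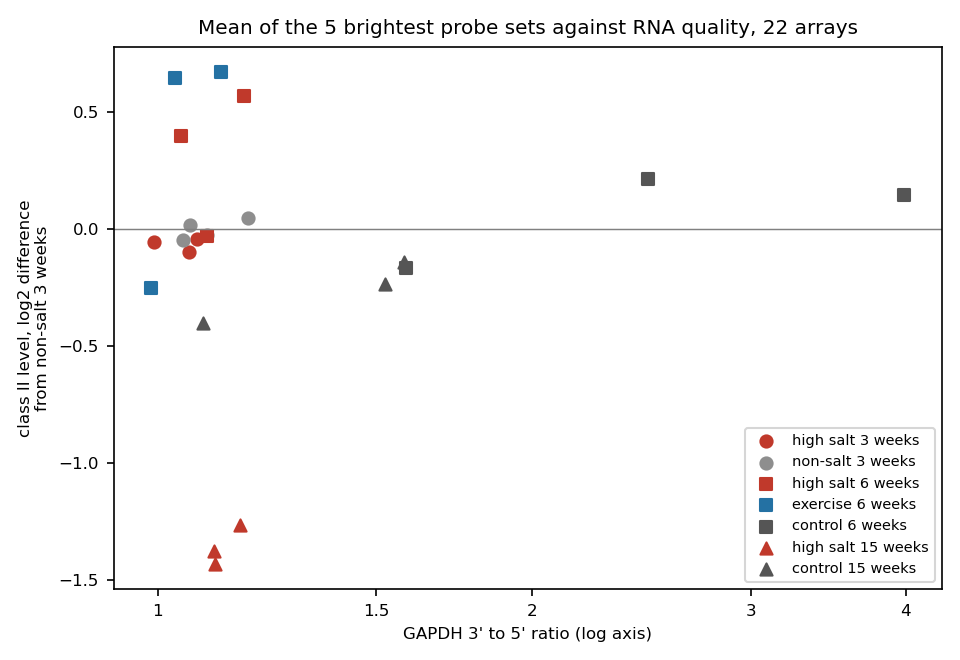
Class II level of each distinct array (vertical axis, log2 difference from the non-salt hearts of 3 weeks) against its GAPDH 3' to 5' ratio (horizontal log axis). The 3 high salt arrays of 15 weeks, at -1.26 to -1.43, lie at ratios of 1.11 to 1.16, and the 6-week controls extend to a ratio of 3.99.

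Between the brightest probe sets of the 5 genes, the 10 Pearson correlations over the 22 arrays ran from 0.63 to 0.94 with a median of 0.75. Without the 3 high salt arrays of 15 weeks they ran from 0.08 to 0.87 with a median of 0.55, the lowest between RT1-Da and Cd74. Over all 78 pairs of tested class II probe sets they ran from -0.12 to 0.95 with a median of 0.77, and M22366_at of RT1-Ba stood apart from most. These arrays share groups, and the values are a description. The genes outside the group whose profile was most like the mean class II profile were Vtn (vitronectin, r = 0.83), Cxcl10 (an interferon-induced chemokine, r = 0.82), Gpc6 (a glypican, 0.79), Tap1 (the peptide transporter of class I loading, 0.78), Rgs4, Nmrk2, Serpinh1 (a collagen chaperone), Lgals9, Tcf4 and Bcl2l15 (0.76). Without the 15-week high salt arrays their r ran from -0.31 for Nmrk2 to 0.54 for Cxcl10.

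The genes that act on class II did not fall as a group at 15 weeks. Of 15 tested genes of class II regulation and peptide loading, 1 fell and 1 rose, beside 3.89% and 3.26% of all tested probe sets, and their median was 0.07. RT1-DMb, a chain of the peptide exchanger, fell by 0.79 ± 0.20 at its brightest probe set (1085, 1387 and 954.9 in high salt hearts, 1938, 1939 and 2068 in controls, adjusted p = 0.021). Its other probe sets, at 288 ± 108 in high salt hearts and 305 ± 94 in controls (U31599_g_at) and at 82.2 ± 40.8 in high salt hearts and 89.8 ± 68.2 in controls (U31599_at), did not pass. Its partner RT1-DMa averaged 399.7 ± 78.3 in high salt hearts and 309 ± 113 in controls and did not pass (0.36 ± 0.22). Ctsl, a cathepsin that trims the invariant chain, rose by 0.83 ± 0.21 (adjusted p = 0.022), and its second probe set did not pass (0.52 ± 0.23). Rfx5, of the X box complex, did not pass (0.07 ± 0.22), nor did the NF-Y genes Nfya, Nfyb and Nfyc, at -0.22, -0.27 and -0.02. The levels of Ciita were not analysed here.

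Class I and peptide supply genes were lower in part. Of 13 tested, 4 fell and 0 rose, with a median of -0.70, beside 3.89% of all tested probe sets that fell. They were Psmb9, an immunoproteasome subunit (-1.44 ± 0.39), Tap1 (-1.11 ± 0.26), Pdia3, a disulfide isomerase of the loading complex (-0.99 ± 0.26), and Psme2, a proteasome activator (-0.86 ± 0.25). Second probe sets of Psmb9 (-1.19 ± 0.72) and Pdia3 (-0.34 ± 0.23) did not pass, and that of Tap1 did (-1.68 ± 0.49). B2m, the light chain of class I, was at 5829, 5818.5 and 5612.5 in high salt hearts and 7917, 8636 and 7631.5 in controls, which did not pass (-0.48 ± 0.19, adjusted p = 0.13). Of 14 interferon response genes 0 passed and the median was -0.25. Gbp2, a guanylate-binding protein induced by interferon, came nearest at -1.65 ± 0.50 (adjusted p = 0.053), and it was named after its value was seen.

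**Figure D4:**
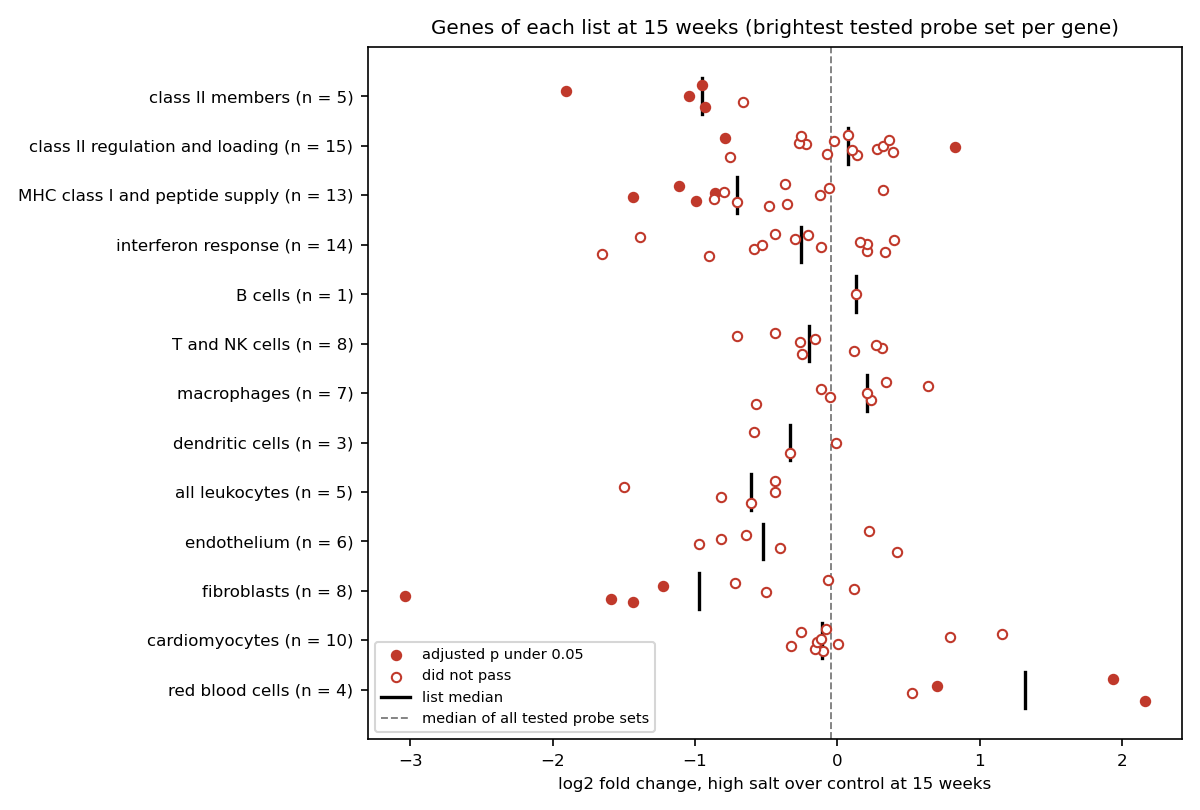
Log2 fold change of high salt over control at 15 weeks (horizontal axis) for each tested gene of each list (vertical axis), with the list median as a bar and the median of all tested probe sets as a dashed line. Of the class II genes 4 of 5 brightest probe sets passed, the class II regulation and loading genes lie on both sides of 0, and the macrophage genes also lie on both sides, with a median of 0.21.

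Markers of cells that carry class II were measured in the same 15-week arrays, where 3.89% of all tested probe sets fell and 3.26% rose. Of 7 macrophage markers 0 passed (median 0.21), and their summed intensity ran from 3261 to 5731 in high salt hearts and from 2579.9 to 3965 in controls. Of 3 dendritic cell markers 0 passed (median -0.33), with sums of 284 to 375 in high salt hearts and 364 to 479 in controls. Cd79b, the single B cell marker tested, was at 144.9 ± 54.6 in high salt hearts and 125 ± 33 in controls. Of 8 T and NK cell markers 0 passed, with a median of -0.20. Of 5 markers shared by all leukocytes 0 passed, with a median of -0.61. Their sums did not overlap, at 696 to 1086 in high salt hearts and 1336 to 1676 in controls. Of all single tested probe sets, 12.4% were without overlap in that direction. Ptprc, which encodes CD45, was at 173 ± 76 in high salt hearts and 242 ± 63 in controls. Such a sum leans on its brightest marker: in the 6-week controls Cd48 averaged 1171 ± 480 and the next brightest, Cd37, 247 ± 59. The part of leukocyte numbers in the class II fall was not tested.

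Marker RNA of other cell types was also compared in these arrays, and some of it differed. Beside the 3.89% of all tested probe sets that fell, 4 of 8 fibroblast markers fell and 0 rose (median -0.97), namely Col3a1 (-3.04), Col1a2 (-1.59), Col1a1 (-1.44) and Lum (-1.22), and their sums ran from 11762.5 to 22495 in high salt hearts and from 26578 to 35885 in controls. Of 6 endothelial markers 0 passed (median -0.52), with sums of 1451 to 1752 in high salt hearts and 2140.1 to 2703 in controls. Of 4 red blood cell markers 3 rose (median 1.32), beside 3.26% of all: Alas2 (2.16), Slc4a1 (1.94) and Hbb-b1 (0.70). The sums of the 4 markers ran from 52814 to 71701 in high salt hearts and from 30772 to 44489 in controls. Of the further Slc4a1 probe sets, J04793_at rose (0.90 ± 0.22) and rc_AA875035_at did not pass (-0.04 ± 0.24). Of 10 cardiomyocyte markers 0 passed (median -0.11). The part of these shifts in the class II fall was not tested.

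At 6 weeks, in high salt against control, the regulation and loading list had 1 rise, the endosomal protease Ctsd (0.73 ± 0.16), and 1 fall, Rfx5 (-0.72 ± 0.22), among 15 tested, beside 6.62% and 7.7% of all tested probe sets. The class I list had 0 calls among 13, and the interferon list had 1 rise (Jak1, 0.86 ± 0.27) and 1 fall (Stat2, -1.0 ± 0.31) among 14. Ptprc (-0.85 ± 0.26) fell among 5 shared leukocyte markers (list median -0.57) and Cd1d1 (-0.67 ± 0.20) among 3 dendritic cell markers (list median -0.39). Cd5 (1.22 ± 0.24) rose among 8 T and NK cell markers (list median 0.04), and 0 of 7 macrophage markers passed. Of 6 endothelial markers 2 fell, Nos3 (-1.29 ± 0.29) and the VEGF receptor Kdr (-0.99 ± 0.31), and of 10 cardiomyocyte markers 2 rose, phospholamban Pln (1.76 ± 0.33) and the calcium pump Atp2a2 (0.65 ± 0.20). A further Atp2a2 probe set fell (-0.97 ± 0.18), and the 5 other Nos3 probe sets did not pass. In exercise against control, Ctsd (0.54 ± 0.16) rose from the loading list, and its second probe set (0.78 ± 0.24) did not pass. Cd5 (0.91 ± 0.24) rose among 8 T and NK cell markers, beside 4.47% of all tested probe sets. It was dim in controls, at 46.6 ± 8.6. The list median was -0.09, and the other markers of this list ran from -0.32 (Klrd1) to 0.04 (Gzmb). In the class I, interferon, macrophage, dendritic and shared leukocyte lists 0 passed. There too Nos3 (-1.02 ± 0.29) and Kdr (-1.51 ± 0.31) fell among 6 endothelial markers, and the 5 other Nos3 probe sets did not pass. Of the remaining endothelial markers, Icam2 (-1.27) was below 0, and Vwf (0.78), Flt1 (0.18) and Pecam1 (0.09) were above 0. These did not pass, and the list median was -0.46. Among all tested probe sets this comparison gave 513 calls in either direction, 293 of them higher. Pln (1.66 ± 0.33) and the calcium release channel Ryr2 (1.58 ± 0.48) rose among 10 cardiomyocyte markers, beside 4.47% of all tested probe sets. The list median was -0.12, and the markers that did not pass ran from -0.26 (Tnni3) to 0.02 (Atp2a2). Both comparisons carry the 6-week controls and their high GAPDH ratios.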

How the data were processed

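The authors deposited a linear intensity for each probe set on each Affymetrix rat array. How they summarised the probes is not given in the sources used here. These deposited intensities had been scaled to a common level (column means after trimming 2% of 500.767 to 501.021) and were used as they stood. Control probe sets (59) were removed, log2(intensity + 40) was taken, and 6555 probe sets with a mean at or above the 25th percentile were tested. The number of arrays limits the precision.

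Groups came from the titles. limma 3.58.1 in R 4.3.3 fitted 20 arrays in 8 groups (12 residual degrees of freedom) with an intensity trend; the 2 arrays under both labels were left out, which leaves 1 control and 1 exercise array at 3 weeks. Comparisons with the non-salt hearts of 3 weeks used all 22 distinct arrays (15 residual degrees of freedom). Calls are at a Benjamini-Hochberg adjusted p under 0.05. The procedure was tested on simulated data.

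Every probe set of the 5 genes is named; from other lists the called genes, at most 4, are named, with a few members given for their role and chosen with values known. Lists used the brightest tested probe set per gene. The annotation gave 1 symbol for 7018 probe sets, several for 308 and none for 1473. The members and lists were chosen with earlier results of these data known. Promoters are RefSeq's (GRCr8), and all 5 genes matched. Same-numbered arrays did not deviate together (correlations of -0.23 to 0.24), so replicate numbers were not treated as pairs. The alternatives tried are given in the section on processing.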

Additional observations from a re-analysis of the deposited data

Results flagged for a closer look

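The high salt effect differed between 15 and 6 weeks by the test of the difference itself (limma, adjusted p under 0.05) at 6 probe sets. The differences were -1.71 for RT1-Da (M15562_g_at), -3.09 for RT1-Ba (X07551cds_s_at), and -1.78 (X13044_at), -1.38 (X13044_g_at), -3.21 (X14254cds_g_at) and -3.72 (X14254cds_at) for Cd74, on the log2 scale. Each was negative, so the high salt level relative to control was lower at 15 weeks than at 6 weeks. The 6-week controls, with GAPDH ratios of 1.58 to 3.99, enter each of these values, and 7 probe sets passed in a fit that held the GAPDH ratio as a covariate.

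Among the 4 non-salt hearts of 3 weeks, RT1-Ba (X07551cds_s_at) was at 189 in 1 array held under both labels and at 316.5 to 328 in the others. The gap to the nearest array was 0.914 of the range of the group. Chance marks about 1 group in 20 this way, and 13 probe sets were examined.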

How the results depend on the processing

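For high salt against control at 15 weeks, 9 class II probe sets were called lower, with 7 to 12 under the other settings and 6 to 8 with 1 array left out in turn. For high salt at 15 against 6 weeks the count was 11, with 10 to 12 and 10 to 11. No called class II value changed sign under any setting run. At 6 weeks, high salt against control, the count of 5 became 3 with no filter on low intensity, 3 with only the compared groups in the fit, 1 with the GAPDH ratio as a covariate, and 0 with controls of 3 and 15 weeks or with non-salt hearts at 3 weeks, the last chosen after seeing the data. With 1 array left out it was 2 to 5, with 2 without high salt number 2 and 3 without high salt number 1, control number 1 or control number 2. For exercise against control the count of 2 became 4 with quantile normalization, 7 with array weights, 1 with only the compared groups, 5 under each of the other readings of the arrays held under 2 labels (all 24 columns, as control, as exercise, or 22 arrays joined), and 0 with the GAPDH covariate or either set of replaced controls. With 1 array left out it was 2 to 5, the 5 without control number 3 or exercise number 1. With array weights the count was 1 for control at 15 against 6 weeks, where it was 0, and 10 for the difference between the salt effects, where it was 6 (4 to 7 with 1 array left out). The cause of these changes was not tested. The replicate block left each count as it was: 9 and 11 for the comparisons of 15-week high salt hearts, 5 and 2 at 6 weeks, 6 for the difference between salt effects and 0 for the others.

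Over all tested probe sets, high salt against control at 15 weeks gave 469 calls, with 266 from only the compared groups, 1034 with array weights and 212 without control number 2. At 6 weeks high salt gave 939, with 13 under the GAPDH covariate and 1812 with array weights, and exercise gave 513, with 0 and 1718. High salt at 15 against 6 weeks gave 204, with 105 from only the compared groups and 472 with array weights. The difference between salt effects gave 98, with 34 under the GAPDH covariate and 685 with array weights, and control at 15 against 6 weeks gave 57, with 1 from only the compared groups and 876 with array weights. The remaining comparisons had 1 to 10 calls and at most 143 under any setting. For high salt against control at 15 weeks, with 3 arrays a group, the half-width of the 95% interval of a class II difference was 0.35 to 0.93 on the log2 scale, with a median of 0.60, so the smallest resolvable difference varied by probe set. Dim probe sets such as the 3 untested ones of RT1-Bb give no comparison.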
